A study of Mus musculus with 6 samples.

Results

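The miRNA cluster of the imprinted Dlk1-Dio3 domain, on mouse chromosome 12, was followed in small-RNA sequencing of the left ventricle. Its members were taken by miRNA number, with any arm and any asterisk, from 46 numbers. They came to 69 of the 698 mature miRNAs listed, and were chosen with earlier results of these data known. The R719W group (n = 3) held mice labelled aMHC719/+, which carry the R719W mutation in Myh6, the gene of the α-myosin heavy chain. The WT group (n = 3) held mice without it. Mice of both groups were given cyclosporin, a calcineurin inhibitor, for 3 weeks, so genotypes are compared under the drug and hearts without it were not analysed here. Of age, sex and strain the sources used here say nothing. The titles call the samples biological replicates. The muscle miRNAs miR-1, miR-133a, miR-208a, miR-208b and miR-499 summed to 398351 to 547470 TMM-normalised CPM in R719W and 523750 to 786677 in WT. Most of each sum was miR-1, at 325172 to 493772 CPM in R719W and 441291 to 663590 in WT. By contrast miR-133a stood at 175 to 272 CPM in R719W and 205 to 286 in WT. Of these miRNAs, miR-499 was the one that fell (edgeR adjusted p = 0.00808 for a log2 fold change of −1.14, SE 0.20). CPM is a count scaled to a common library size.

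As background, the region is a cluster of genes read from only the maternal or only the paternal chromosome. The maternal copy makes long noncoding RNAs, Meg3, Rian and Mirg among them, and most of the region's miRNAs are cut from such transcripts, while the paternal copy makes the proteins Dlk1, Rtl1 and Dio3. In mice these miRNAs are known to be abundant in the embryo, the placenta and the brain, and to fall to low levels in heart and skeletal muscle after birth. A miRNA selects its target mRNAs mainly through its seed, bases 2 to 8 from the 5′ end.

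The sequences of the members that passed the test for a difference between genotypes, and of miR-381, the second most abundant, show which seeds are concerned. The seed is in capitals, and the sequences are the tables' own written as RNA.
miR-411: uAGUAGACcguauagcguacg
miR-379: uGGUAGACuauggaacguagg
miR-376a: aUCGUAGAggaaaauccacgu
miR-433: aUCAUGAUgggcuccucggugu
miR-541: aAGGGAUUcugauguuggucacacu
miR-381: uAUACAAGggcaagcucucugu
None of these 6 shares its whole seed with any other miRNA in the tables; among the 6, the seeds of miR-411 and miR-379 are the closest pair and differ at 1 base. A mature miRNA in RefSeq (GRCm38.p6) was identical to 61 of the 69 members, another 5 lay inside the hairpin of their own name, and 3 (miR-544 and both arms of miR-666) were not matched. The 66 matched members came from 44 hairpins, all on the plus strand.

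Members were a small part of each library. Of 5842532 reads over the 6 libraries, 5384 fell on members. Library totals were 865845 to 1168379 reads in R719W and 765425 to 1192020 in WT, so members made up 0.125% ± 0.0289 of reads in R719W and 0.0564% ± 0.0122 in WT (SD, n = 3 each). The lowest R719W share exceeded the highest WT share. The summed level, scaled by TMM, was 967, 1353 and 1132 CPM in R719W and 513, 652 and 637 in WT, a ratio of means of 1.92, and 1.72 with miR-411 left out. In bulk tissue, fewer cells of a type and less RNA per cell cannot be told apart.

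More members were found at all in R719W. In R719W 36, 41 and 36 members had at least 1 read, and in WT 22, 29 and 27 did. Had each library been read to the depth of the shallowest, 765425 reads, the expected numbers would be 33.0, 36.1 and 35.0 in R719W and 21.7, 29.0 and 24.5 in WT. At that depth the other miRNAs numbered 261, 274 and 277 in R719W and 261, 262 and 254 in WT, so the genotypes lay further apart among members than among the rest, given here without a test. Over the 6 libraries, 47 members had a read, 33 of them in both genotypes, 13 in R719W alone and 1 in WT alone, and 22 had none. A count of 0 allows up to 2.40 to 3.06 CPM in an R719W library and 3.03 to 4.06 CPM in a WT library (3 reads, counting error only, as reads carry no molecular identifiers).

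Reads were concentrated at the far end of the region. The block of hairpins between Mir379 and Mir410 (chr12:109709060-109743795, GRCm38.p6) held 87.8% of the members' reads and 8 of the 13 members with enough reads to be tested. The block antisense to Rtl1, between Mir431 and Mir136 (chr12:109590447-109595388), held 10.9% and 4 tested members. Mir341 and Mir370, within the noncoding gene Rian, held 1.11%, all on miR-341. The 6 hairpins at the Meg3 end, Mir770 to Mir665, held 9 reads in all. Block sums differed between genotypes by a like factor: the ratio of means was 1.90 for Mir379 to Mir410, 2.04 for the Rtl1 antisense block and 2.19 for the Rian pair. In each library the Mir379 to Mir410 block gave 801, 1220 and 992 CPM in R719W and 449, 562 and 577 in WT. The Rtl1 antisense block gave 150, 114 and 128.3 CPM in R719W and 56.8, 79.3 and 56.6 in WT. Neither block had overlap between the genotypes.

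**Figure D1:**
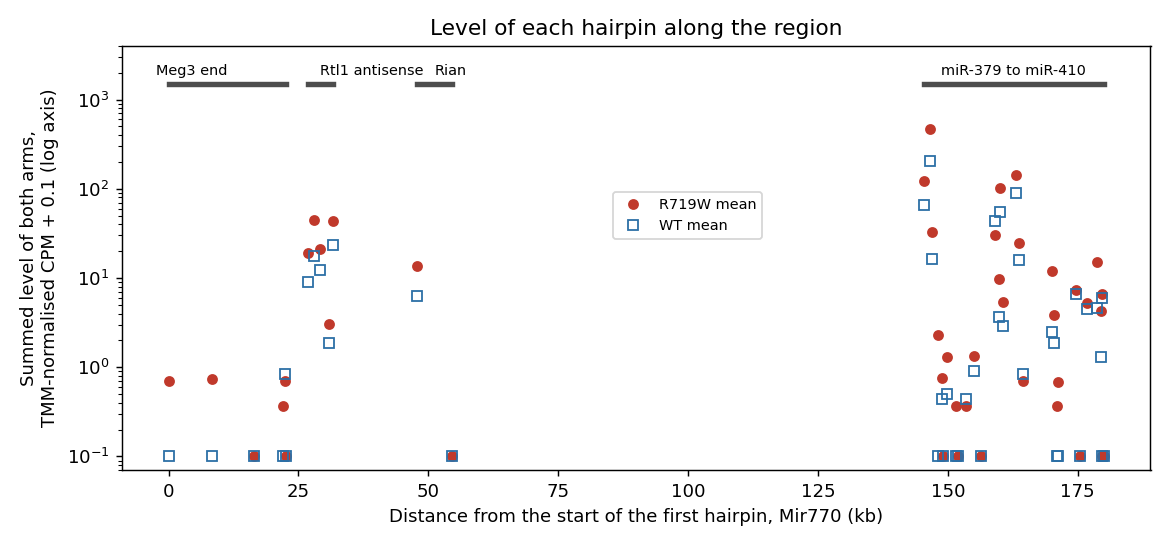
Each hairpin's level, both arms summed, as the mean of 3 R719W libraries (filled circles) and 3 WT libraries (open squares), in TMM-normalised CPM plus 0.1 on a log axis, against the distance in kb from the first hairpin; grey bars mark the blocks. The highest levels are in the Mir379 to Mir410 block and the next in the Rtl1 antisense block, while hairpins of the Meg3 end stay below 1 CPM; points at the bottom edge are hairpins with no read in that genotype.

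The Rtl1 antisense miRNAs lie opposite the coding sequence of Rtl1, a retrotransposon-derived gene needed in the placenta and in fetal muscle, and match its mRNA fully. miR-433 of this block stood at 61.1, 26.4 and 36.8 CPM in R719W replicates 1, 2 and 3, and at 18.9, 22.0 and 12.1 CPM in WT replicates 1, 2 and 3. Its genotypes did not overlap, R719W replicate 1 was the highest, and the log2 fold change, R719W over WT, was 1.23 (SE 0.38; edgeR quasi-likelihood test, Benjamini-Hochberg adjusted p = 0.0452). miR-136 stood at 60.1, 20.8 and 50.004 CPM in R719W and 18.9, 36.6 and 15.2 in WT, with R719W replicate 2 below WT replicate 2 (edgeR adjusted p = 0.164 for a log2 fold change of 0.88, SE 0.45).

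miR-127, the best known repressor of Rtl1 in the mouse placenta, had 9.17, 31.2 and 20.8 CPM in R719W and 9.47, 12.2 and 15.2 CPM in WT. R719W replicate 1 lay just below the WT range, and miR-127 did not pass (edgeR adjusted p = 0.224 for a log2 fold change of 0.73, SE 0.44). miR-431, which in mouse muscle stem cells is known to target Pax7, had 16.3, 28.0 and 12.3 CPM in R719W and 9.47, 6.10 and 10.1 CPM in WT. Its groups did not overlap, but it did not pass either (edgeR adjusted p = 0.0843 for a log2 fold change of 1.14, SE 0.42). The fifth hairpin of the block, Mir434, gave 10 reads of miR-434-3p, 7 in R719W and 3 in WT, and 5 of miR-434-5p, 3 in R719W and 2 in WT.

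In Rian, miR-341, a miRNA of rodents, stood at 14.3, 16.0 and 10.4 CPM in R719W and 6.77, 9.76 and 2.02 in WT. The groups did not overlap by a narrow margin, R719W replicate 3 against WT replicate 2, and the difference did not pass (edgeR adjusted p = 0.108 for a log2 fold change of 1.18, SE 0.49). miR-370 had no read in any library.

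In the Mir379 to Mir410 block, miR-411 was the most abundant member in both genotypes. It stood at 307, 658 and 455 CPM in R719W replicates 1, 2 and 3 and at 188, 195 and 238 CPM in WT replicates 1, 2 and 3. All 3 R719W libraries lay above the WT libraries, with R719W replicate 2 far above the others, and miR-411 rose 2.28-fold (edgeR adjusted p = 0.0254 for a log2 fold change of 1.19, SE 0.28). It took 40.2% ± 8.48 of the members' reads in R719W and 34.7% ± 4.15 in WT (SD, n = 3 each). The hairpin next to it, Mir379, which opens the block and starts 1.12 kb before it, gave 109, 145.6 and 111 CPM of miR-379 in R719W and 50.1, 86.6 and 62.7 in WT. miR-379 rose 1.83-fold without overlap (edgeR adjusted p = 0.0361 for a log2 fold change of 0.88, SE 0.25). The ratio of miR-411 to miR-379 reads, which no scaling can move, was 2.81, 4.52 and 4.08 in R719W and 3.76, 2.25 and 3.81 in WT, so it overlapped between genotypes.

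miR-541, at the other end of the block and known to restrain hypertrophy of cultured mouse heart muscle cells, rested on few reads: 13, 28 and 10 in R719W and 2, 4 and 6 in WT. Its level was 13.2, 22.4 and 9.43 CPM in R719W and 2.71, 4.88 and 6.06 CPM in WT, a 3.20-fold rise without overlap (edgeR adjusted p = 0.0366 for a log2 fold change of 1.68, SE 0.49). miR-541 had enough reads to be tested through R719W libraries alone, with 3 of them over the minimum and 0 of WT. miR-381, second in level, stood at 108, 173 and 144.4 CPM in R719W and at 85.3, 97.6 and 88.9 CPM in WT. Each R719W library lay above each WT library, and miR-381 did not pass (edgeR adjusted p = 0.0767 for a log2 fold change of 0.65, SE 0.23). miR-299 (26.5, 22.4 and 30.2 CPM in R719W, 12.2, 17.1 and 17.2 in WT) and miR-487b (24.4, 26.4 and 22.6 CPM in R719W, 12.2, 20.7 and 15.2 in WT) likewise did not overlap and did not pass, with edgeR adjusted p of 0.0907 and 0.149. In the order of mean levels the top 4 were miR-411, miR-381, miR-379 and miR-376a in both genotypes. In R719W the libraries of miR-381, miR-379 and miR-376a overlapped with each other, so their order is not separated from the spread, and levels of different miRNAs also depend on how well each sequence is ligated.

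**Figure D2:**
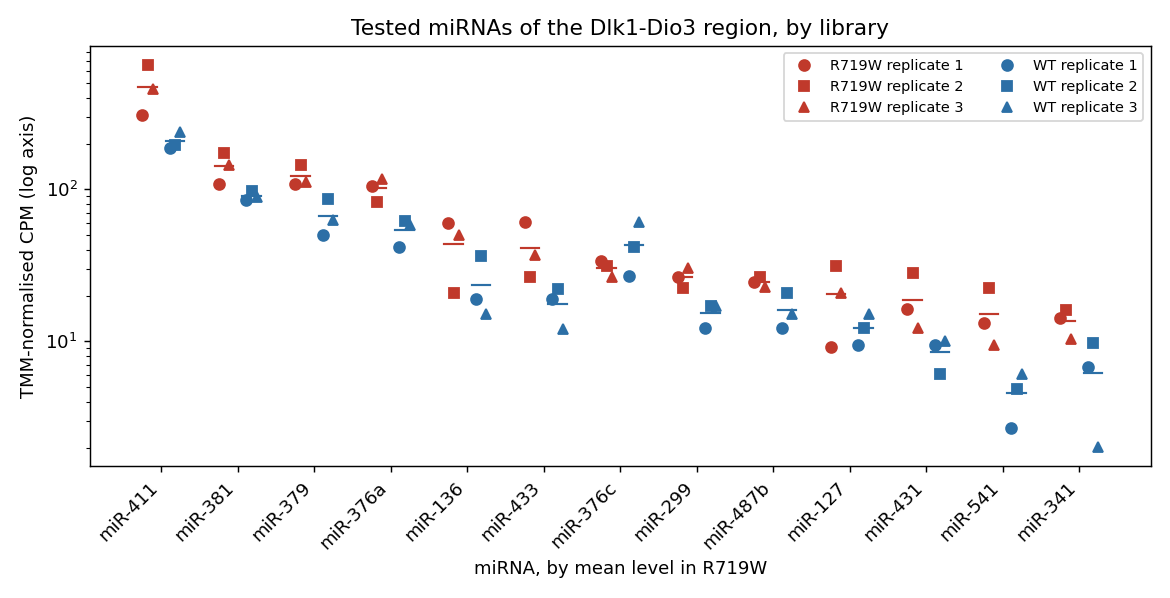
TMM-normalised CPM (log axis) of the 13 tested members in each library, R719W in red left of WT in blue, with circles, squares and triangles for replicates 1, 2 and 3 and a line at each mean of 3. All 3 R719W points lie above all 3 WT points for 10 miRNAs, and the points overlap for miR-136, miR-376c and miR-127.

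The miR-376 hairpins sit side by side, Mir376c, Mir376b and Mir376a, with starts spread over 1.06 kb, and did not move alike. Their sequences are printed because they are close but have different seeds, again in capitals.
miR-376a: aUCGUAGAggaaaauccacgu
miR-376b: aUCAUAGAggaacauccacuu
miR-376c: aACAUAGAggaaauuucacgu
miR-376a differs from miR-376b by 3 edits and from miR-376c by 4, of which 1 and 2 fall in the seed. miR-376a stood at 105, 82.4 and 117 CPM in R719W and 42.0, 62.2 and 58.6 CPM in WT, a 1.86-fold rise without overlap (edgeR adjusted p = 0.0276 for a log2 fold change of 0.89, SE 0.24). miR-376b had 5, 9 and 8 reads in R719W and 1, 0 and 0 in WT, too few for the test. miR-376c was the only tested member with a negative log2 fold change (−0.52, SE 0.31, edgeR adjusted p = 0.212), at 33.6, 31.2 and 26.4 CPM in R719W and 27.1, 41.5 and 60.6 CPM in WT, with overlap. Within a library, the ratio of miR-376a to miR-376c reads was 3.12, 2.64 and 4.43 in R719W and 1.55, 1.5 and 0.967 in WT. This ratio was higher in each R719W library than in any WT library; the pair was picked after its values were seen, so no test is given. Precursors of the miR-376 group are known to be edited from A to I in mouse and human brain, and whether reads with a changed base, or reads close to several members, were counted is stated in none of the sources used here.

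**Figure D3:**
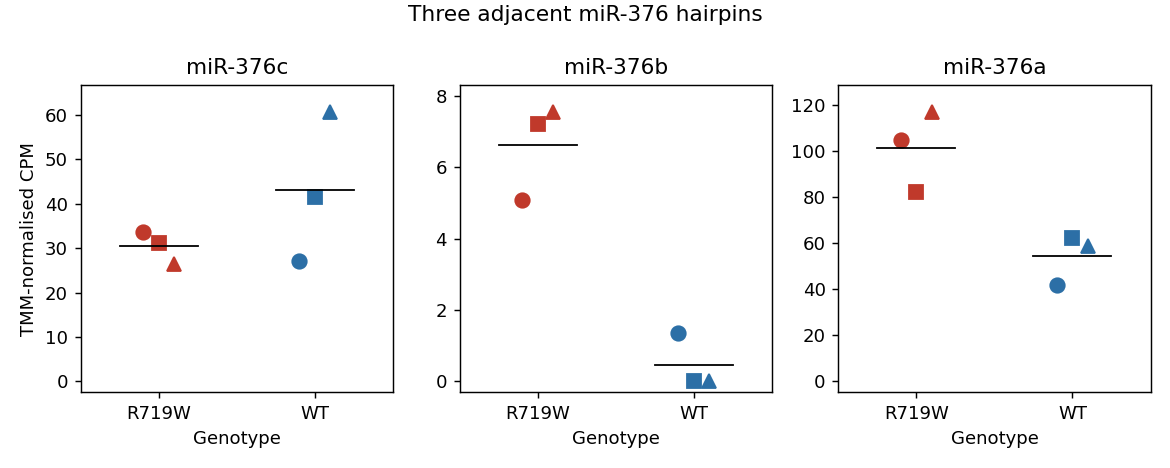
TMM-normalised CPM (linear axes from 0, each panel with its own scale) of the neighbouring miR-376c, miR-376b and miR-376a in R719W and WT libraries, with circles, squares and triangles for replicates 1, 2 and 3 and a line at each mean. miR-376a and miR-376b lie higher in all R719W libraries, while miR-376c overlaps between genotypes.

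Counted over the region, 5 of the 13 tested members rose in R719W by edgeR's quasi-likelihood test (adjusted p below 0.05 over all 181 miRNAs tested): in order of fold change miR-541, miR-433, miR-411, miR-376a and miR-379. Among all miRNAs tested, 12.7% rose, and 19.9% were called in either direction. By edgeR, 0 members fell, with 0 at an unadjusted p below 0.05 and 0 by DESeq2, while 7.18% of all miRNAs tested fell. The R719W libraries all lay above the WT libraries for 10 of the 13, against 24.9% of all tested, and all below for 0, against 16% of all tested. The median log2 fold change was 0.88 for the 13 and 0.10 over all tested, and 12 of the 13 were positive, against 54.7% of all tested. These figures over members are a description, since 3 of the 13 (miR-341, miR-431 and miR-541) reached the filter on low counts through R719W libraries alone, as only 5 of all 181 miRNAs did, and the other 56 members were not tested. miR-376c stayed negative and the other 12 positive under each of the 4 scalings of the counts; DESeq2's size factors and library totals alone move the log2 fold change of a typical miRNA by −0.11 and 0.21 relative to TMM.

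The calls depended on which libraries were present. With a library left out, edgeR called 0 members without R719W replicate 3, without WT replicate 1 or without WT replicate 3. Without WT replicate 2 it called 1, miR-379. Calls over all miRNAs fell in the same 4 fits, from 36 of 181 tested with all libraries. In the order above, they were 7 of 189, 4 of 193, 4 of 186 and 20 of 189. In those 4 fits 7, 5, 8 and 10 members had a positive fold change at an unadjusted p below 0.05. miR-376c was negative at that level without WT replicate 1, and also without R719W replicate 1. Its log2 fold change was −0.84 without WT replicate 1 but −0.19 without WT replicate 3, its highest WT library. Without R719W replicate 1 edgeR called 7 members, of 56 miRNAs called in all. Without R719W replicate 2 it called 5, of 40 in all, with miR-136 and miR-382 called and miR-379 and miR-541 not. In R719W replicate 1 let-7 miRNAs held 20.5% of reads, against 11.9% and 13.5% in the other R719W libraries, while WT libraries lay between 7.53% and 11.6%; without it miR-127, miR-381 and miR-431 were called as well and miR-433 was not. The log2 fold changes over the 6 fits ranged from 0.77 to 1.39 for miR-411, 0.62 to 1.09 for miR-379, 0.65 to 0.98 for miR-376a, 0.80 to 1.40 for miR-433 and 1.13 to 1.94 for miR-541. With DESeq2 in place of edgeR, or its size factors in edgeR, miR-411 alone was called.

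**Figure D4:**
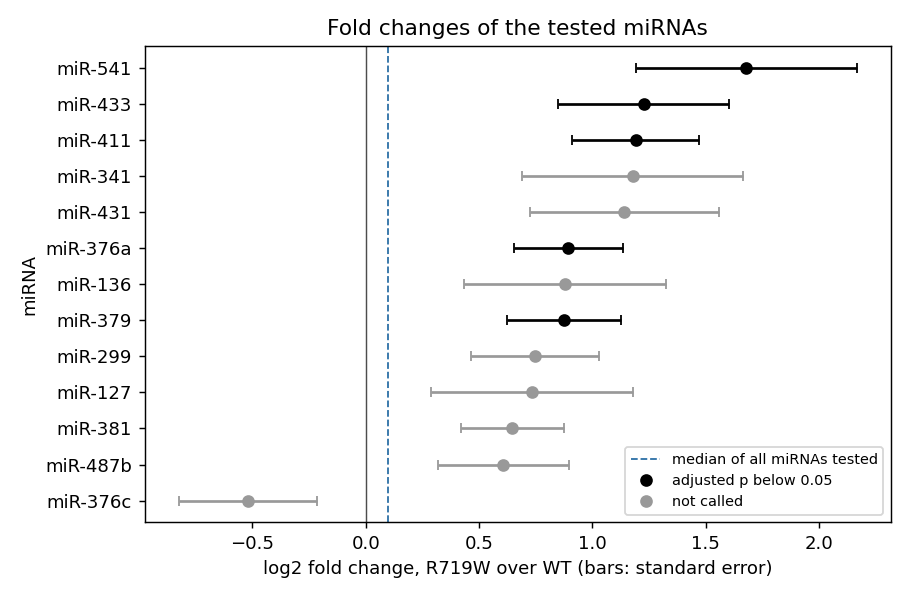
Log2 fold change of R719W over WT for the 13 tested members with its standard error (bars), black where the edgeR adjusted p is below 0.05 and grey otherwise; the dashed line is the median of all miRNAs tested, 0.10. Of the 13, 12 lie to the right of 0 and miR-376c lies to the left.

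A total of 34 members had reads but too few for the test. Those with at least 10 reads over the 6 libraries numbered 11, and miR-382 led them with 16, 9 and 13 reads in R719W and 2, 2 and 2 in WT. miR-299*, the 5′ arm of its hairpin, had 7, 7 and 8 reads in R719W and 0, 2 and 0 in WT. miR-409-3p had 6, 2 and 5 reads in R719W and 1 in each WT library. These 3 and miR-376b had all R719W libraries above all WT libraries after scaling, as did miR-127* and miR-666-5p, each with 0 reads in WT and 3 and 4 in R719W. The R719W levels of miR-127* and miR-666-5p, 0.80 to 1.60 CPM, are under what a count of 0 allows in any single WT library. No such bound was worked out for the WT libraries together, so a difference in miR-127* and miR-666-5p is left undecided. All R719W libraries were thus above for 6 of the 34, these 2 included, and for 10.7% of all untested miRNAs with a read. With no filter on low counts, edgeR over 387 miRNAs also called miR-376b, miR-382 and miR-299* (adjusted p = 0.00480, 0.00550 and 0.0141). That fit called 29 of the 387 higher and 19 lower, and 8 of 47 members higher.

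Others of the 11 were closer to even. miR-369-3p had 4, 6 and 10 reads in R719W and 4, 5 and 6 in WT. miR-154, studied in mouse hearts for its part in fibrosis, had 7, 2 and 9 reads in R719W and 6, 6 and 3 in WT. miR-377 had 5, 7 and 5 reads in R719W and 4, 3 and 4 in WT, and miR-376b* had 3, 5 and 2 in R719W and 2, 2 and 4 in WT. miR-300, whose sequence is 3 edits from that of miR-381, had 3, 8 and 6 reads in R719W and 1, 3 and 2 in WT. miR-134, which limits dendritic spine growth in rodent neurons by targeting Limk1, had 7, 4 and 1 reads in R719W and 0, 1 and 4 in WT, and so overlapped.

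Set beside other untested miRNAs of equal total reads, the low members held more of their reads in R719W. After scaling to library size, R719W held 82.1% of the reads of the 9 members with 2 to 3 reads in total, against 54.9% for the 30 other miRNAs in that range. For 4 to 10 reads it was 73.6% over 10 members and 57.9% over 37 others, and for 11 to 30 reads it was 71.1% over 7 members and 54.1% over 42 others. At 31 to 59 reads, where 3 members stand (miR-382, miR-369-3p and miR-154), it was 62.3%, against 52.8% over 27 others. In that range miR-382 carried the excess, with mean levels of 11.9 CPM in R719W and 2.39 in WT. miR-369-3p had 6.10 and 5.86 CPM, and miR-154 had 5.74 and 6.16. Over all ranges, 27 of 34 members and 97 of 172 others had the higher mean level in R719W, and 13 members and 37 others were read in R719W alone, against 1 and 19 in WT alone. The lowest ranges hold few reads, 20 in all for the members with 2 to 3 and 5 for those with 1.

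**Figure D5:**
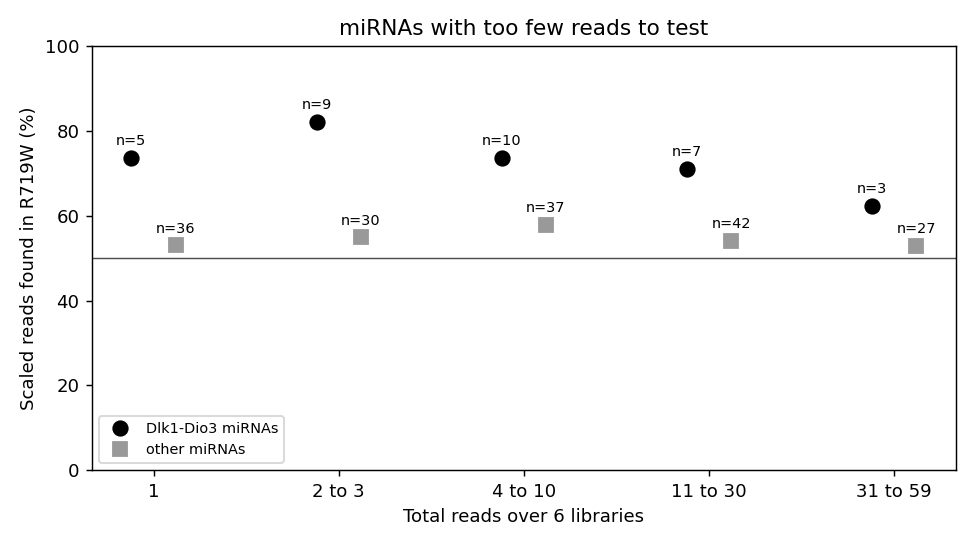
Share of scaled reads found in R719W (percent, vertical axis from 0 to 100, line at 50) for miRNAs with too few reads to test, by their total reads over 6 libraries; black circles are members and grey squares other miRNAs, with the number of miRNAs beside each point. Members lie above the other miRNAs in all 5 ranges, from 62.3% to 82.1%.

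Several members studied in heart disease were barely read. miR-410 and miR-495, known to promote division of cultured rodent heart muscle cells, had 0 and 6 reads over the 6 libraries. miR-494, known to protect mouse hearts in ischaemia, had 1 read, in R719W replicate 2. miR-329, known with miR-495, miR-494 and miR-487b for restraining growth of blood vessels in mice, had 5 reads, 4 in R719W and 1 in WT. miR-485, miR-539 and miR-668 had 2, 4 and 1 reads. At the Meg3 end, miR-770-5p, miR-673-5p and miR-337-3p were read in R719W alone, with 2, 2 and 1 reads, and miR-540-3p had 2 in each genotype. The remaining members with reads were miR-154* with 6, miR-380-5p with 5, miR-323-3p with 3, miR-543, miR-376a*, miR-380-3p and miR-300* with 2 each, and miR-369-5p and miR-431* with 1 each, the last of them the member read in WT alone. Besides miR-370 and miR-410, those without a read were the single-arm entries miR-412, miR-493, miR-496, miR-544, miR-665, miR-667, miR-679 and miR-758 and 12 minor arms (miR-136*, miR-323-5p, miR-337-5p, miR-376c*, miR-382*, miR-409-5p, miR-411*, miR-485*, miR-540-5p, miR-666-3p, miR-673-3p and miR-770-3p).

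Where both arms of an abundant hairpin were listed, reads came nearly all from one of them. miR-411 had 2141 reads and miR-411* none, miR-376c 100 in R719W and 114 in WT and miR-376c* none, miR-136 197 and miR-136* none. Among minor arms with reads were miR-433* with 9 beside 176 of miR-433, all in R719W replicates 2 and 3, and miR-299* with 22 in R719W and 2 in WT beside 86 and 40 of miR-299. The arms were closer to even in Mir376b, with 23 reads of miR-376b and 18 of miR-376b*, and in Mir434, with 10 reads of miR-434-3p and 5 of miR-434-5p. In R719W miR-376b had 22 reads and miR-376b* 10, while in WT miR-376b had 1 and miR-376b* 8. miR-376b* differs by 1 edit, outside the seed, from miR-376c*, which had no read. How the counting assigned reads close to both is not stated in the sources used here. In no hairpin did both arms have a read in every library.

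Members also varied among themselves by library. In R719W, replicate 2, the deepest of the 3 at 1168379 reads, had the highest level of 8 of the 13 tested members, among them miR-411, miR-379, miR-381 and miR-541. R719W replicate 1 had the highest miR-433, miR-136 and miR-376c and the lowest miR-411, miR-379, miR-381 and miR-127. In WT, replicate 1 had the lowest level of 9 of the 13 and the highest of none. The ratio of miR-411 to miR-433 reads spread accordingly, at 5.02, 24.9 and 12.4 in R719W and 9.93, 8.89 and 19.7 in WT. Within the Rtl1 antisense block the highest R719W library was replicate 1 for miR-433 and miR-136, and replicate 2 for miR-127 and miR-431. The miR-433 to miR-136 ratio, within the antisense block, stayed between 0.736 and 1.27 in R719W and 0.6 and 1.0 in WT.

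Other miRNAs of the region and around it were read beside the members. Of 8 further listed miRNAs from the region, miR-1193 alone had reads, 6, 11 and 6 in R719W and 0, 3 and 1 in WT. Outside the imprinted genes, miR-342-3p, from an intron of Evl on the same chromosome, fell (16, 14 and 10 reads in R719W, 20, 25 and 29 in WT; edgeR adjusted p = 0.0254 for a log2 fold change of −1.24, SE 0.29). Among miRNAs of other imprinted loci, miR-335-5p and miR-335-3p of the Mest gene were the tested ones and did not pass (log2 fold change 0.09 with SE 0.19, and 0.52 with SE 0.30). Of the untested ones, miR-296-3p had 11, 1 and 8 reads in R719W and 0, 3 and 2 in WT, miR-298 had 1, 13 and 4 in R719W and 1, 3 and 1 in WT, and miR-675-5p, cut from the imprinted noncoding RNA H19, had 1 in R719W and 2 in WT.

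Markers of other cells were read beside the members, and of these lists the fibroblast one alone had entries called higher. The fibroblast miRNAs (miR-199a, miR-199b and miR-214, 4 of 5 entries tested, 3 higher) summed to 1010 to 1380 CPM in R719W and 192 to 225 in WT. The leukocyte miRNAs (6 of 7 entries with reads, miR-150* at 0) summed to 1109 to 1481 CPM in R719W and 878 to 1013 in WT, with miR-150 lower and the others not called. miR-206, of satellite cells and immature muscle, had 5, 2 and 2 reads in R719W and 0 in each WT library. Its level in R719W replicates 2 and 3, 1.60 and 1.89 CPM, is under what a count of 0 allows in a WT library. Neuronal miRNAs, of a tissue rich in members, summed to 44.8 to 60.4 CPM in R719W and 53.7 to 65.0 in WT, and the defining neuronal miR-124 was at 0 in all libraries. The 2 arms of endothelial miR-126 summed to 15193 to 16805 CPM in R719W and 17980 to 22206 in WT, without overlap of the sums. Each arm by itself overlapped between genotypes and was not called. The smooth muscle sums (17214 to 25585 in R719W, 20925 to 36206 in WT) and erythroid sums (1361 to 2570 in R719W, 1966 to 3301 in WT) overlapped. The part of fibroblasts, leukocytes or immature muscle in the members' rise was not tested.

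The promoter of Meg3, the first of the maternal noncoding transcripts, is shown for context (RefSeq, GRCm38.p6, chr12:109540746-109541045, plus strand, 250 bases before to 50 after the start). Capitals mark TGACGTCA, the cyclic AMP response element.
Meg3: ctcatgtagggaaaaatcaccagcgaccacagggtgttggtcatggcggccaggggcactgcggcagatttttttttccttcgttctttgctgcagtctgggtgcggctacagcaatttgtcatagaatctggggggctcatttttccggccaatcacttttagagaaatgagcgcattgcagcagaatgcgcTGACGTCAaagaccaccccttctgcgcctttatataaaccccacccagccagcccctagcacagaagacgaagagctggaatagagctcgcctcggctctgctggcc
This element, searched on both strands, starts 57 bases before the start and is held by 1.79% of 32851 windows of the same length. The MEF2 motif, named for a factor known to regulate the region in mouse muscle, was searched as YTAWWWWTAR (Y is C or T, W is A or T, R is A or G). This exact pattern is not among the letters of this window and is held by 3.19% of windows. Such a search does not show that sites close to the pattern are absent. No reads bear on the promoter, so both are descriptions of sequence.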

How the data were processed

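Small RNA of 6 left ventricles (3 R719W, 3 WT, all given cyclosporin for 3 weeks) was sequenced from multiplexed miRNA libraries made after a total RNA isolation that retains small RNAs, per the labels' protocols. The authors deposited 1 table per genotype with read counts per mature miRNA, not normalized, per the file headers. Beside them stands a normalized value that equals CPM, the count over the library's total of listed miRNAs; the deposited CPM was not used for tests. Aligner, mismatches allowed, annotation release and genome build: not given in the sources used here. Columns were matched to samples by barcode.

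The tests ran on these counts in edgeR 4.0.16 under R 4.3.3: filterByExpr on genotype (minimum count 10, total 15), TMM scaling, a quasi-likelihood fit (glmQLFit) and its two-sided test (glmQLFTest), adjusted by Benjamini-Hochberg over the 181 miRNAs that passed the filter. Levels are counts over TMM-scaled library size. The SE of a log2 fold change is its size over the root of F. Alternatives were DESeq2 1.42.0, 3 other scalings, 2 other filters, a block for replicate number, and each library left out in turn. The edgeR step was tested on simulated data. Replicates differed beyond sampling noise in every pair (from 32.8 to 283 for chi-square over its degrees of freedom), and p-values measure the spread between these samples. The members and lists were chosen with earlier results of these data known. Tested members, untested ones with at least 10 reads, and sequences of called members and the 2 most abundant were named by rule; miR-376b and miR-376c sequences and low members with a known role in heart or vessels were added after values were seen.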

Additional observations from a re-analysis of the deposited data

How the results depend on the processing

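The number of members called higher was 5. It was 1 with DESeq2's size factors, 1 with DESeq2's test, 3 with library totals without the 5 most abundant miRNAs, 8 of 47 tested with no filter and 2 of 4 tested with 100 reads in 3 libraries, and 0 to 7 with a library left out. All miRNAs called numbered 36, against 20 with totals without the 5 most abundant, 22 with 100 reads in 3 libraries, and 4 to 56 with a library left out. The median log2 fold change of tested members, 0.88, ranged from 0.77 to 1.07 over the other settings and from 0.66 to 1.04 with a library left out. The share of reads on members was 0.351% in R719W and 0.18% in WT once the 5 most abundant miRNAs were taken from the total, by construction. None of the 13 tested members changed sign in any of these fits, and 0 were called lower in each. Same-numbered libraries did not deviate together (correlations −0.18, −0.38 and −0.00077). With so few libraries this cannot exclude a pairing, and the labels do not say that the numbers pair the samples. With the replicate number as a block, 5 members were called, the same 5, of 30 miRNAs in all. At this depth 56 members were not tested.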
